A study of Mus musculus with 7 samples.

Results

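The binding sites of 2 transcription factors, Shox2 and Pbx, in the mouse embryonic limb at E12.5 (a stage in days of embryonic development) were compared site by site. The Shox2 limb list and the Pbx limb list hold 33915 chromatin immunoprecipitation (ChIP-seq) peaks each, so 67830 of the 82921 regions listed for the 3 libraries with peak lists, the last being Shox2 in palate. All peaks of both limb lists were used. A Shox2 peak was counted as co-occupied when it shared 1 bp or more with a Pbx peak, which gave 8999 sites. All 8999 regions that the authors' deposited table lists as co-occupied were among them. The Shox2 library came from freshly dissected limb of embryos carrying HA-tagged Shox2 and was precipitated with an anti-HA antibody. The Pbx library came from limb of the same stage and was precipitated with an anti-Pbx antibody. The labels do not say which Pbx family members it binds, whether these limbs also carried the tagged Shox2, how many embryos were pooled, or whether fore- and hindlimbs were mixed. Each group is a single library. The values therefore carry no replicate error, and no difference between the libraries was tested.

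Shox2 is a homeodomain transcription factor of the proximal limb, where it is needed for the bone of the upper arm and thigh. Pbx proteins are homeodomain factors of the TALE class, named for an extension in a loop of the homeodomain. They bind DNA together with partners such as Hox and Meis proteins, and in the limb they act early in proximal patterning.

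The lists give only the position and extent of each peak, in mouse build mm9, without height, score or p-value, and depth is unknown. Shox2 peaks were narrow, with a median width of 261 bp and 90% of them at most 533 bp wide. Their smallest width was 170 bp, and 2345 peaks (6.91%) had exactly that width. Pbx peaks were broader, with a median of 897 bp, and 1785 of them spanned 2000 bp or more, against 3 Shox2 peaks. Because a wide peak meets others by its extent alone, shares at the deposited extents are set beside those with every peak set to 200 bp around its centre, at which peaks overlap only when their centres lie under 200 bp apart. The 95% intervals are Wilson intervals for single shares and Newcombe intervals for differences. They cover counting error only and take peaks as independent, which neighbouring peaks are not.

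In the whole Shox2 list 26.5% of peaks lay on Pbx, and in the whole Pbx list 23.4% lay on Shox2 (7927 peaks). At 200 bp the shares were 16.4% and 16.3%. These are the background against which each count below is read. A Shox2 peak on Pbx usually sat within it: 7870 of the 8999 (87.5%) lay wholly inside the Pbx peak, and only 7 touched 2 Pbx peaks. The cut at 1 bp fell among few sites. There were 160 co-occupied peaks that shared 100 bp or less with Pbx and 151 peaks without Pbx whose gap to one was under 100 bp. Both sets were alike in width, with medians of 218 and 238 bp. Their median centre distances were 565 and 638 bp, which the small overlap or gap that defines the sets brings close by construction.

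Pbx centres were piled up at Shox2 centres and thinned out within 1 kb. Counting every Pbx centre around every Shox2 centre, 3390 lay under 100 bp away, a density of 499.8 per kb and 1000 Shox2 peaks. The density was 321 at 100 to 200 bp, 128 at 200 to 500 bp and 38.5 at 500 to 1000 bp. From 1 to 2 kb it was 23.1, close to the 20.6 found at 5 to 10 kb. The density under 100 bp was thus 24.2 times that at 5 to 10 kb, and the density from 1 to 2 kb was 1.12 times that level. Within 500 bp, 4077 Pbx centres lay at lower and 4089 at higher coordinates than the Shox2 centre. Coordinates carry no strand or gene orientation, so this split cannot show whether Pbx favours 1 side of a Shox2 site.

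**Figure D1:**
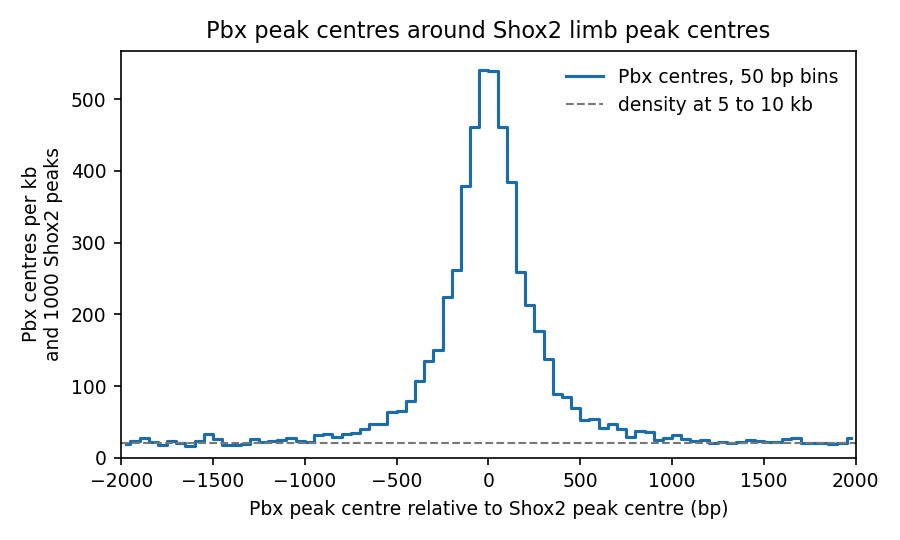
Density of Pbx peak centres (per kb and 1000 Shox2 peaks, 50 bp bins) against their distance in bp from Shox2 limb peak centres. The dashed line is the density at 5 to 10 kb (20.6). The density is highest at the Shox2 centre and approaches the dashed line by 1 kb on either side.

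The median distance between centres was 142 bp at co-occupied sites, with quartiles of 63 and 289 bp. Shox2 peaks without Pbx had their nearest Pbx centre at a median of 26.2 kb, with quartiles of 9.17 and 69.0 kb. For 4225 Shox2 peaks (12.46%) the nearest Pbx centre was over 100 kb away. From the other side, Pbx peaks without Shox2 lay at a median of 36.3 kb from the nearest Shox2 centre, and 6690 Pbx peaks (19.7%) had none within 100 kb, among them the 72 on sequences where the Shox2 list has no peak.

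The top of the Shox2 list was nearly all on Pbx. The file order is not explained in the sources used here. Peaks narrow down both lists, so the order may be a ranking. All of the first 20 Shox2 peaks overlapped Pbx, as did 87 of the first 100 (interval 79.0 to 92.2%) and 679 of the first 1000 (67.9%, interval 64.9 to 70.7%). The whole-list share is 26.5%. With every peak set to 200 bp, 59 of the first 100 and 479 of the first 1000 did. These first peaks were also the wide ones, with a median of 744 bp over the first 100.

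The first 5 Shox2 peaks show how close the pairs are. The first, chr19:28185947-28186597, lay inside the Pbx peak chr19:28185506-28186704, with the centres 167 bp apart. The second, chr5:47827558-47828279, lay inside a Pbx peak of 1128 bp with the centres 14 bp apart. The third, chr8:53206048-53207204, was itself 1157 bp wide and reached beyond its Pbx partner of 909 bp on both sides, with centres 104 bp apart. The fourth, chr8:104550808-104551688, and the fifth, chr1:142635527-142636297, had their centres 86.5 and 106 bp from that of the Pbx peak. The Pbx partners of these 5 stood at places 5084, 3605, 13436, 1870 and 19611 of the 33915 in the Pbx list. None of these 5 partners was among its first 1000 peaks, but 5 sites do not stand for the top of the list. Of the first 100 Shox2 peaks 87 lay on Pbx, and 22 had their partner among the first 1000 Pbx peaks.

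Of the first 100 Shox2 peaks, 13 met no Pbx peak, and their nearest Pbx centre lay from 4.37 kb to 547 kb away. The nearest was at chr1:45732557-45733100 and the farthest at chr7:98674503-98675161. A further one, chr7:63754234-63755475, was 1242 bp wide and lay 533 kb from the nearest Pbx centre. These 3 peaks were chosen after their values were seen.

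The Pbx list did not mirror this. Of its first 100 peaks only 14 (interval 8.53 to 22.1%) met a Shox2 peak, below the whole-list share of 23.4%, and at 200 bp only 2 did. These 100 peaks were wide, with a median of 1850 bp, which makes an overlap easier at the deposited extents. At 200 bp a smaller part of a wide peak is kept, which lowers that share by construction. For these 100 peaks the nearest Shox2 centre lay over 10 kb away in 72 cases and over 100 kb away in 42. In addition, 1 more peak lay on a sequence with no Shox2 peak. The first 5 Pbx peaks all lacked Shox2. The first, chr17:17370501-17372367, lay 55.2 kb from the nearest Shox2 centre, and the fourth, chr3:89214894-89217229, lay 207 kb from it. The second, chr7:6679695-6684326, was 4632 bp wide and the third, chr8:124345502-124351966, was 6465 bp wide. Of all Pbx peaks of 2 kb or more, 38.0% met a Shox2 peak, so such wide peaks without Shox2 are the more common case. The fifth was chr17:17141414-17142581, at 174 kb.

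Further down, the Pbx share rose before it fell. It was 39.3% (interval 34.6 to 44.1%) at places 101 to 500, 47.0% (42.7 to 51.4%) at places 501 to 1000 and 47.0% (43.9 to 50.1%) at places 1001 to 2000. Over the same places the Shox2 share fell steadily, from 71.5% to 61.2% and 54.6%. At 200 bp the Pbx shares, from places 1 to 100 on, were 2.0, 20.5, 26.8 and 31.0%. Those of the Shox2 list were 59.0, 53.8, 41.0 and 38.2%. The median width of the Pbx peaks fell over these places, from 1850 to 1418 bp. The 200 bp setting lowers the shares of wide peaks most by construction, so the Pbx rise at 200 bp cannot be told apart from that of width. What sets the very top of the Pbx list apart was not tested.

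**Figure D2:**
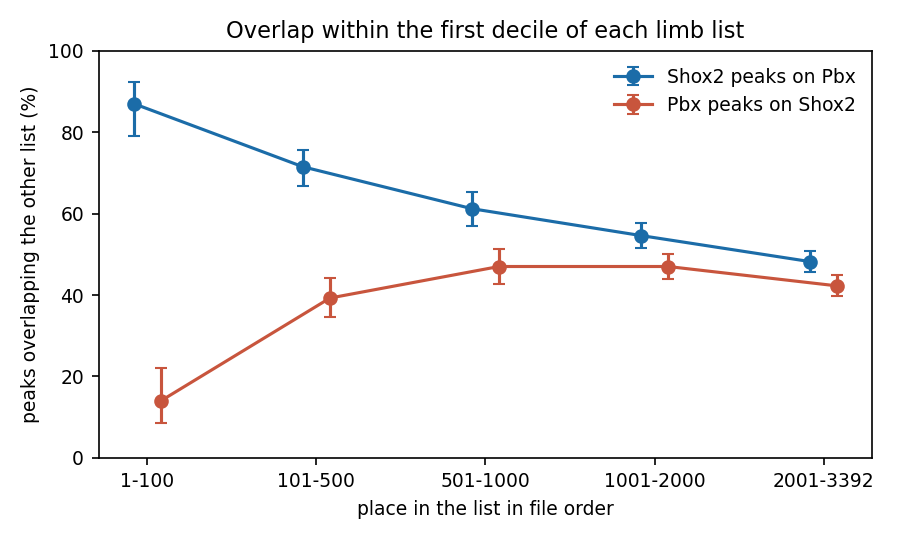
Share of peaks (%) that overlap the other limb list, by place in the file, within the first decile of each list, at the deposited extents. Points are shares and bars 95% Wilson intervals. The Shox2 share falls from 87% at places 1 to 100, while the Pbx share starts at 14% and reaches 47.0%.

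Over the deciles of the lists both shares fell, except for a rise at the end of the Shox2 list. The Shox2 share went from 55.9% (interval 54.2 to 57.6%) in the first decile to 37.4% in the second, 30.0% in the third, 15.5% (14.4 to 16.8%) in the ninth and 18.02% (16.8 to 19.3%) in the last. The difference between first and last decile was 37.9 percentage points (interval 35.7 to 39.96). The Pbx share went from 43.2% and 37.1% in the first deciles to 12.9% in the last. Co-occupied sites of the first Shox2 decile were also more tightly centred, with a median centre distance of 117 bp against 193 bp in the last. Their Pbx peaks were of similar width, with medians of 1173 and 1108 bp, and stood higher in the Pbx list, at median places of 7150 and 12286.

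**Figure D3:**
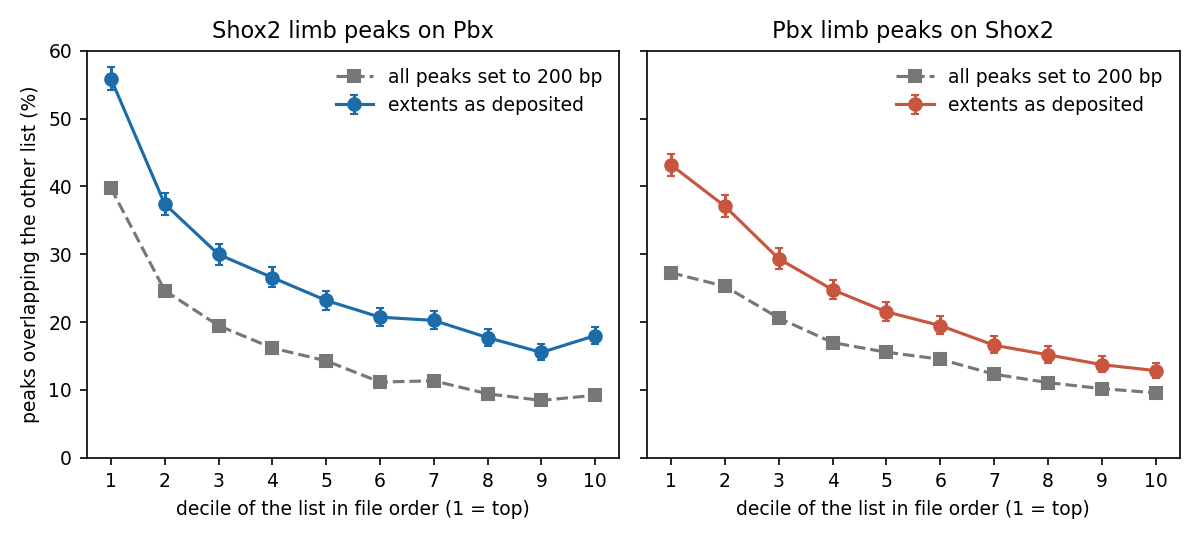
Share of peaks (%) overlapping the other limb list by decile of file order, for Shox2 (left) and Pbx (right). Circles with 95% Wilson intervals are at the deposited extents and squares are with all peaks set to 200 bp. Between the first and last decile the Shox2 share falls from 55.9 to 18.02% and the Pbx share from 43.2 to 12.9%.

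The places of the partners in their own lists were only loosely related. Across the 8999 sites Spearman's rho between Shox2 and Pbx place was 0.15, and between Shox2 and Pbx width 0.10. These are correlations across sites of 1 library each, given as a description. Cutting each list into 3 equal parts, 2578 pairs had both peaks in the upper part, 28.6% of all pairs, and 445 had both in the lower part (4.94%). A Shox2 peak of the upper part had its Pbx partner in the lower part at 725 sites, and the reverse held at 940 sites. Co-occupied peaks stand high in both lists, so pairs with both peaks in the upper part are common even without a relation between the places. The Pbx partner was in the upper part for 57.5% of co-occupied Shox2 peaks of the upper part. For those of the lower part it was 46.4%.

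Width and list place each went with co-occupancy when the other was held, except that place made little difference among the narrowest peaks. The widest 10% of Shox2 peaks, from 533 to 2358 bp, lay on Pbx in 53.8% of cases, and the narrowest 10%, from 170 to 174 bp, in 15.5%. At 200 bp, where the deposited width no longer adds to the overlap, these shares were 37.0% and 8.58%. To separate width from place, the list was cut into 5 classes of each. Among the widest class (about 411 bp and up) the 200 bp share fell from 38.6% at the top of the list to 13.9% at the bottom. In the narrowest class (at most 189 bp) it stayed between 7.97 and 11.2%, though only 22 peaks of that class stood in the top part of the list. Within the top part, it was 19.8% in the second width class (263 peaks) and 26.6% in the fourth.

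**Figure D4:**
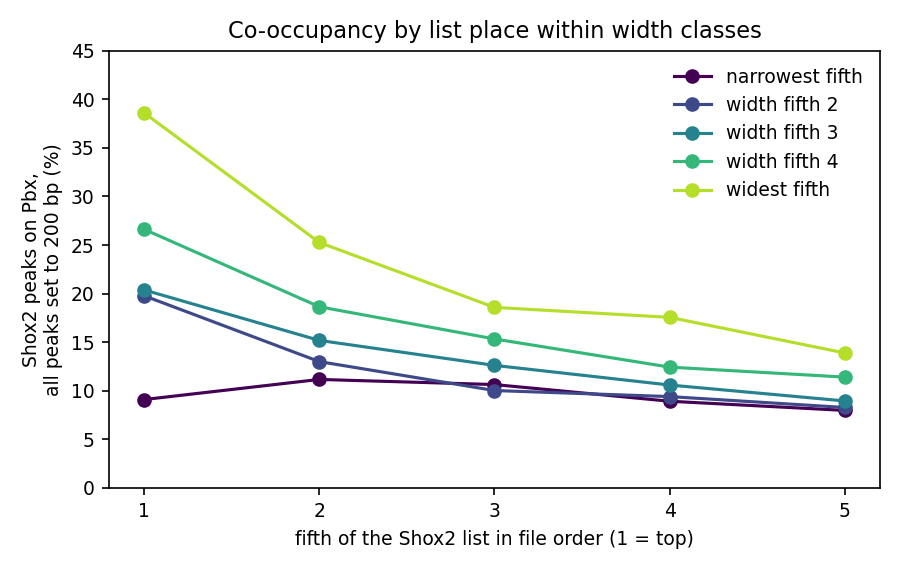
Share of Shox2 limb peaks on Pbx (%), all peaks set to 200 bp, by list place in 5 classes, with 1 line for each of 5 width classes. The widest class falls from 38.6 to 13.9% and stays above the other lines at every place, and the narrowest stays between 7.97 and 11.2%.

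Some Pbx peaks held several Shox2 peaks. Of the 7927 Pbx peaks with Shox2, 960 (12.1%) held 2 or more, and together these carried 2039 Shox2 peaks, 22.7% of the co-occupied sites. Such Pbx peaks had a median width of 1490 bp, against 1027 bp for those with 1 Shox2 peak and 853 bp for those with none. Neighbouring Shox2 centres on 1 Pbx peak lay a median of 533 bp apart, with quartiles of 406 and 720 bp. Of the 1785 Pbx peaks of 2 kb or more, 241 held 2 or more Shox2 peaks. Of the 20613 under 1000 bp 157 did, a far smaller share (0.76%), and of all 33915 Pbx peaks 960 did. A wide Pbx peak can hold more Shox2 peaks by its extent alone. At least 1 Shox2 peak was met by 38.0% of those of 2 kb or more, by 36.6% of the 41 of 5 kb or more and by 16.6% of those under 1000 bp. At 200 bp the order turned, with 12.04%, 4.88% and 13.96%. That setting keeps a smaller part of a wide Pbx peak than of a narrow one, so it lowers the shares of wide peaks most by construction. It cannot show whether wide Pbx peaks are poorer in Shox2.

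Only 1 Pbx peak held 5 Shox2 peaks, chr4:82536066-82538415, at place 4997 of its list. Its Shox2 peaks were narrow, from 171 to 325 bp, stood at places 22418 to 33467, and were spaced 324 to 512 bp apart. The other Pbx peaks with most Shox2 peaks held 4 each. Among them were chr14:58933187-58935421, at place 568, and chr4:30638208-30640869, at place 900, whose best Shox2 peaks stood at places 784 and 552.

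Shox2 peaks were often clustered, and clustered peaks were more often co-occupied at the deposited extents. Of the Shox2 peaks, 16356 had another Shox2 centre within 10 kb, and 30.4% of these lay on Pbx, against 22.9% of the 17559 lone peaks. The difference was 7.55 percentage points (interval 6.61 to 8.49). The share rose with crowding, from 28.3% with 1 neighbour to 39.1% (interval 36.1 to 42.2%) with 4 or more. At 200 bp this rise was gone, with 16.4% for lone peaks and 15.2% with 4 or more neighbours. At the deposited extents 2039 co-occupied peaks shared their Pbx peak with another Shox2 peak, and each was counted. Neighbouring Shox2 centres on 1 Pbx peak lay a median of 533 bp apart, so at 200 bp most such neighbours no longer count together. How much of the rise and of the 7.55 points is this repeat counting was not tested. Median width moved with crowding as well, from 254 bp for lone peaks to 282 bp, while the median list place hardly did. Other Pbx peaks within 10 kb were counted, leaving out only those that the Shox2 peak itself overlapped. Their mean number was 0.23 around lone Shox2 peaks and 1.20 around those with 4 or more neighbours. Around co-occupied peaks it was 0.55 and around the others 0.34. Pbx peaks overlapped by a neighbouring Shox2 peak were included, so these means can rise with the number of neighbours by the counting alone. They do not show whether Pbx is enriched where Shox2 peaks crowd.

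Neighbouring Shox2 peaks tended to share their state. Up to 1 kb, the next Shox2 peak along the chromosome was on Pbx in 87.8% of cases after a co-occupied peak and in 8.47% after a peak without Pbx. This is mainly the same Pbx peak counted again: of the 999 neighbouring pairs within 1 kb that were both co-occupied, 979 lay on 1 Pbx peak. At 5 to 10 kb, where no pair shared a Pbx peak, the shares were 33.3% and 24.1%, a difference of 9.17 percentage points (interval 5.68 to 12.7). At 100 to 1000 kb they were 26.6% and 21.4%, a difference of 5.19 points (interval 2.70 to 7.77). With all peaks set to 200 bp and neighbours up to 10 kb the difference was -1.24 points, against 34.2 points at the deposited extents.

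**Figure D5:**
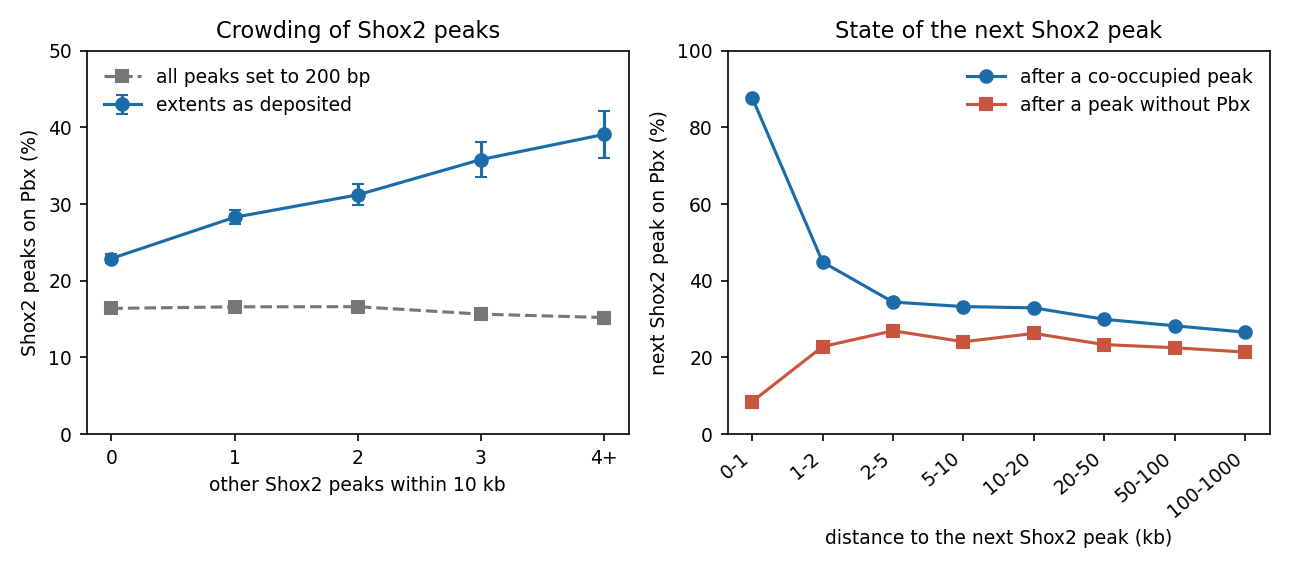
Left, share of Shox2 limb peaks on Pbx (%) by the number of other Shox2 centres within 10 kb, at the deposited extents (circles, 95% Wilson intervals) and at 200 bp (squares). Right, share of next Shox2 peaks on Pbx (%) by distance in kb, after a co-occupied peak (circles) and after a peak without Pbx (squares). The left rise from 22.9 to 39.1% is absent at 200 bp, and the right lines are 87.8 and 8.47% up to 1 kb and 26.6 and 21.4% at 100 to 1000 kb.

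Long stretches of co-occupied sites were rare. Linking Shox2 peaks up to 10 kb apart gave 23904 groups, of which 12 had 10 or more peaks, and these 12 held 149 peaks, 68 of them co-occupied (45.6%, and 16.1% at 200 bp). Unbroken runs of co-occupied peaks reached 7 sites, and 14 runs had 5 or more. The longest, chr7:106087811-106106651, held 7 Shox2 peaks of 191 to 1241 bp on 5 Pbx peaks. It lies in a group of 15 Shox2 peaks, chr7:106073456-106132126, of which 13 were co-occupied. The next runs, chr11:67850013-67863605 and chr11:110503667-110529930, each held 6 Shox2 peaks on 4 Pbx peaks. The largest Shox2 group of all, chr2:77707965-77771788, had 21 Shox2 peaks in 63.8 kb, 11 of them co-occupied, with 14 Pbx peaks, and none of its Shox2 peaks stood above place 10575 of the list. These groups of 15 and 21 peaks were singled out after their values were seen.

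On the scale of whole chromosomes, the mix of peaks differed more than the Shox2 share did. There were 0.60 Shox2 peaks for each Pbx peak on chromosome 11 and 1.47 on chromosome 3, with 1.81 on X. On the autosomes the share of Pbx peaks with Shox2 ran from 16.4% on chromosome 17 (interval 14.6 to 18.4%) to 32.6% on chromosome 3 (30.6 to 34.8%). The share of Shox2 peaks on Pbx ran on the autosomes from 24.2% on chromosome 16 (22.1 to 26.4%) to 32.2% on chromosome 11 (29.7 to 34.8%). It was 25.2% on chromosome 3 (23.7 to 26.9%) and 17.9% on X (15.2 to 20.9%). At 200 bp it was 15.4% on chromosome 16, 19.3% on chromosome 11, 15.3% on chromosome 3 and 14.2% on X.

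Windows of 1 Mb with many Shox2 peaks ranged from no co-occupancy to most sites. Shox2 peaks that share a Pbx peak were each counted in the window shares. Among the 588 windows with 20 or more Shox2 peaks the median share was 27.0%, with quartiles of 18.97 and 35.9%, and 39 windows reached 50% or more. The highest share, 81.3%, was on chromosome 8 from 27 to 28 Mb, with 26 of 32 Shox2 peaks on Pbx. Chromosome 17 from 86 to 87 Mb followed with 14 of 20, and chromosome 2 from 4 to 5 Mb with 16 of 23. At 200 bp these 3 windows had 43.8%, 50% and 39.1%. Of the other windows with the highest shares, chromosome 2 from 169 to 170 Mb went from 69.0% to 13.8% at 200 bp, under the 16.4% of the whole list, and chromosome 18 from 84 to 85 Mb from 66.7% to 25%. At the other end, 5 windows had none. On chromosome 16 these were the windows from 41 to 42 and from 51 to 52 Mb, with 1 window each on chromosomes 1 (80 to 81 Mb), 2 (136 to 137 Mb) and 4 (4 to 5 Mb). These windows held 20 to 22 Shox2 peaks and only 1 to 7 Pbx peaks, while the 5 with the highest shares held 30 to 59. By number of co-occupied sites, chromosome 14 from 23 to 24 Mb (35 of 73) tied for first with the Shox2 window given below. Chromosome 18 from 55 to 56 Mb had 32 of 75, 7 from 143 to 144 Mb 30 of 48, 12 from 74 to 75 Mb 29 of 48 and 13 from 32 to 33 Mb 29 of 61. At 200 bp these 5 windows had 27.4%, 14.7%, 25%, 29.2% and 34.4%. The other windows with most sites were chromosome 8 from 27 to 28 Mb and those of Tbx18, Prrx1 and Trps1 below. Windows rich in Pbx could also hold few or no Shox2 peaks. Chromosome 2 from 166 to 167 Mb had 80 Pbx peaks, the second-highest count of all windows, and 2 Shox2 peaks, each of them on Pbx. The next window, from 167 to 168 Mb, had 45 Pbx peaks and 0 Shox2 peaks. Across the 2502 windows with any limb peak, Spearman's rho between the numbers of Shox2 and Pbx peaks was 0.30, as a description.

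Genes could be set beside windows only in part, since no mm9 annotation was used here. For the following genes the window is from general knowledge of mm9 and was not checked against an annotation. Only the chromosome was checked, against a GRCm38 gene table. They were chosen with earlier counts of the dense windows known, so their high counts are no finding. The window of Shox2 itself, chromosome 3 from 66 to 67 Mb, had the most Shox2 peaks of all windows, 93, of which 35 lay on Pbx (37.6%). It had 33 Pbx peaks, 26 of them with Shox2. The window of Tbx18, a T-box factor of limb and heart mesenchyme, is at 87 to 88 Mb of chromosome 9, and 165 to 166 Mb of chromosome 1 holds Prrx1, a homeodomain factor of limb mesenchyme. They had 34 of 70 and 33 of 79 Shox2 peaks on Pbx, and 23 of 33 and 25 of 28 Pbx peaks held Shox2. At 200 bp the shares of Shox2 peaks on Pbx in the windows of Shox2, Tbx18 and Prrx1 were 17.2%, 17.1% and 20.3%, near the 16.4% of the whole list.

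Windows of other limb genes were mixed. The window of Trps1, a GATA-type factor of cartilage (chromosome 15 from 50 to 51 Mb), had 29 of 53 Shox2 peaks on Pbx. That of Zfp503, a zinc finger factor (chromosome 14 from 22 to 23 Mb), had 25 of 54. The window of Runx2, the master regulator of osteoblasts (chromosome 17 from 44 to 45 Mb), had 19 of 48, with 16 of its 35 Pbx peaks holding Shox2. The window of Meis1, a TALE factor that partners Pbx (chromosome 11 from 18 to 19 Mb), had 9 of 20. The HoxA window (chromosome 6 from 52 to 53 Mb) had 15 of 28 Shox2 peaks on Pbx, 53.6%, and the HoxD window (chromosome 2 from 74 to 75 Mb) had 11 of 46, 23.9%. The numbers of Pbx peaks in the HoxA and HoxD windows were close, 26 and 28, and so were those with Shox2, 11 and 10. Shox2 peaks that share a Pbx peak each count in the shares of 53.6% and 23.9%. At 200 bp the shares of the HoxA and HoxD windows were 17.9% and 15.2%. The window of Gli3, a transcription factor of the hedgehog pathway (chromosome 13 from 15 to 16 Mb), had 9 of 28, and that of the ligand Wnt5a (chromosome 14 from 29 to 30 Mb) had 8 of 36. At 200 bp the share was 26.4% in the Trps1 window, 22.2% in that of Zfp503, 21.4% in that of Gli3, 14.6% in that of Runx2, 13.9% in that of Wnt5a and 10% in that of Meis1.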

How the data were processed

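Peak lists of Shox2 and Pbx ChIP-seq in E12.5 limb were used as deposited. The submitters' processing notes name Bowtie, MACS2 and build mm9. Tool versions and settings, peak-calling controls and list cutoffs were not given in the sources used here. Another 4 libraries of the series and the signal tracks were not analysed here, and the palate list was only counted. No mm9 genome or annotation was used, and no coordinates were converted. Positions are printed counting from 1, and peaks were assigned to windows by their centres. Centres are midpoints of the deposited regions. Of the Pbx peaks, 72 lay outside chromosomes 1 to 19 and X and stayed in all counts except those by window and chromosome, and medians of the distance to Shox2. List place is the line number. Named sites were drawn from sets fixed by a rule, and not every site of these sets is named. The sets are the 5 first peaks of each list, the 5 Pbx peaks with most Shox2 peaks and the 5 longest runs. For windows they are those with most sites, with the highest and lowest shares and with most Pbx but few Shox2 peaks. Sites outside the rule are said to be chosen after their values were seen, and the windows of named genes were picked with earlier counts known. The members and lists were chosen with earlier results of these data known. With 1 library per group no test was made. Shares and intervals were computed with statsmodels 0.14.6 and NumPy 2.4.6 in Python 3.11.15, rank correlations with SciPy 1.17.1, and figures with matplotlib 3.10.9. The overlap code was tested on simulated data and gave the same 8999 sites as bedtools 2.31.1.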

Additional observations from a re-analysis of the deposited data

How the results depend on the processing

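Of 36 alternatives, 11 stayed within the counting interval of the reported value and 1 changed sign. For Shox2 peaks on Pbx (26.5%) the share was 25.9% when 50% of the Shox2 peak or its centre had to be covered, 5.31% when 50% of both peaks had to overlap, 16.4% at 200 bp, 27.6% at 1000 bp, 24.4% with the first 50% of each list and 25.2% with the widest 50%. For Pbx peaks on Shox2 (23.4%) it was 5.33% with 50% of the Pbx peak, 5.31% with 50% of both, 15.2% with the Pbx centre inside, 16.3% at 200 bp, 24.1% at 1000 bp and 22.8% with the first 50%. The median centre distance (142 bp) was 150 bp for any Pbx centre within 1 kb and 137.5 bp with 50% of the Shox2 peak. The gap between first and last decile (37.9 points) was 30.5 at 200 bp and 22.8 in the middle of 3 width classes. The gap between widest and narrowest decile (38.3 points) was 28.4 at 200 bp and 23.1 in the middle of 3 classes of list place. The gap between clustered and lone peaks (7.55 points) was 8.85 within 5 kb and 0.032 at 200 bp. Within deciles of file order, an alternative chosen after seeing the data like that without peaks of minimum width, it averaged 6.78. The excess of co-occupied next peaks (34.2 points) was 44.6 within 5 kb, 26.3 within 20 kb, 10.6 without pairs on 1 Pbx peak and -1.24 at 200 bp. At 200 bp a Pbx peak reaches only Shox2 centres under 200 bp away, so most neighbours on 1 broad Pbx peak no longer count together. Leaving out pairs on 1 Pbx peak removes only pairs that are both co-occupied, which lowers that value by construction. No paired analysis was possible because both groups are single libraries, nor could a library be dropped. Absence from a list may mean no binding or a peak under an unstated cutoff.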
